A study of Mus musculus with 2 samples.

Results

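The cells described here are 1902 cells of a mouse pancreatic cancer line that held transcripts of Tnc, Acta2, H2ac8 or Slc1a3 and no transcript of S100g, Epcam, Tm4sf20 or Ehf. They were 8.90% of the 21361 cell barcodes that passed the filter, out of 22178 barcodes in 1 library. The line, KPCY 6419c5, comes from a mouse pancreatic ductal adenocarcinoma. Clones 76 and 84 of this line were pooled 1:1 after 19 days of editing by BASELINE, a lineage-tracing system built on a Cas12a adenine base editor, and a 3' single-cell library was made in droplets. Both clones had been grown from sorted single cells that carried the editing system. The barcodes were not assigned to clones, so all cells are 1 sample of 2 pooled clones, and another pool, of clones 1, 32, 33, 52 and 76, was not used here.

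The cells were chosen from expression in 2 steps. A cells carried at least 2 transcripts (UMIs, unique molecular identifiers) of Pde10a, Plcb1, Galnt18, Arhgap15 and Ceacam1 together, and at least 3 times as many of these as of S100a7a, Rgs20, Hs6st2, Ccbe1, Ctse and Mal together. B cells were chosen by the reverse rule. Of 7816 A cells, the 1902 had at least 2 UMIs of the 4 genes Tnc (ENSMUSG00000028364), Acta2 (ENSMUSG00000035783), H2ac8 (ENSMUSG00000069272) and Slc1a3 (ENSMUSG00000005360) together and 0 UMIs of the 4 genes S100g, Epcam, Tm4sf20 and Ehf. They are called Tnc/Acta2 cells below, and the 2 gene sets are called the contractile set and the epithelial set. Tnc/Acta2 cells were 24.3% of A cells (exact binomial 95% interval 23.4 to 25.3%). The remaining 5914 A cells are the other A cells. Among them, 695 met the mirror rule, with at least 2 UMIs of the epithelial set and 0 of the contractile set, and are called S100g/Epcam cells. Cells of 1 library are not replicates, so no test between groups was possible, and every interval covers counting error only.

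Acta2 encodes the smooth-muscle isoform of alpha actin, which assembles with myosin and tropomyosin into contractile stress fibres. Tnc encodes tenascin C, a matrix glycoprotein made during wound repair and in tumours. Slc1a3 encodes a membrane transporter of glutamate and aspartate, and H2ac8 encodes a core histone of the kind made while DNA is copied. Contractile genes are classic targets of serum response factor (SRF) and its actin-sensing partners, the MRTF coactivators, and stretched or spread cells also switch on genes through YAP, TAZ and the TEAD factors. In pancreatic tumours Acta2 is best known from activated fibroblasts, whereas Epcam and Ehf are genes of epithelial cells.

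Slc1a3 and Acta2 made up most of the contractile set in the Tnc/Acta2 cells. Slc1a3 was seen in 71.9% of the 1902 cells (69.8 to 73.9%), Acta2 in 53.8% (51.5 to 56.0%), Tnc in 37.9% (35.7 to 40.1%) and H2ac8 in 34.6% (32.5 to 36.8%). Acta2 gave 45.0% of the UMIs of the set and was the most uneven of the 4 genes, with a median of 1 UMI per cell, a 95th percentile of 9 and up to 51 in 1 cell. For Slc1a3 the median was also 1 UMI, but the 95th percentile was 3 and the maximum 7. Only 1 of the 4 genes was seen in 526 cells, 2 genes in 938, 3 genes in 384 and all 4 in 54. The rule had thus gathered cells with different combinations of these genes, and 284 cells had met it on Slc1a3 alone.

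The A cells formed no gap at the thresholds of the rule. There were 693 Tnc/Acta2 cells, or 36.4% of them, with exactly 2 contractile UMIs, just inside the threshold. Just outside it were 1082 A cells with 1 contractile and 0 epithelial UMIs, and 336 with 2 contractile UMIs and 1 epithelial UMI. UMIs of both sets were found in 2698 A cells (34.5%), and 986 A cells (12.6%) had UMIs of neither. The median number of UMIs per cell was 4985 in Tnc/Acta2 cells, 4614 in other A cells and 4287 in S100g/Epcam cells, and a deeper cell passes a minimum of 2 UMIs more easily. With the rule applied after each cell was thinned to 3000 UMIs, the share of Tnc/Acta2 cells was 18.6% of A cells.

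**Figure D1:**
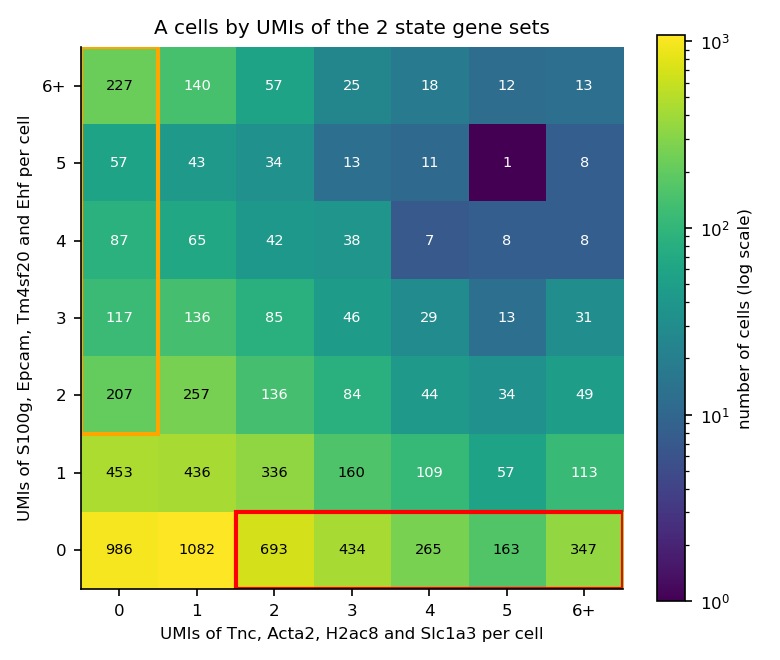
Number of A cells by UMIs of the contractile set (horizontal axis) and of the epithelial set (vertical axis) per cell, 6 or more pooled, with colour on a log scale. The red frame holds the 1902 Tnc/Acta2 cells and the orange frame the 695 S100g/Epcam cells, and the fullest squares are the 1082 cells with 1 contractile UMI and no epithelial UMI and the 986 cells with neither set.

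Contractile and epithelial transcripts often met in the same cell, also at matched depth. Levels from here on, unless said otherwise, are from cells thinned to 3000 UMIs, as CPM of the summed counts, the usual depth-scaled unit, which left 1838 Tnc/Acta2 cells, 5568 other A cells and 625 S100g/Epcam cells. Shallower cells were left out, 64 of the first group, 346 of the second and 70 of the third. An epithelial UMI was found in 42.4% of A cells with 0 contractile UMIs (40.6 to 44.1%), in 37.0% with 1 (35.0 to 39.0%) and in 34.0% with 2 or more (32.0 to 36.1%). The intervals of the first and last of these groups did not overlap, and those of the last 2 did.

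Acta2 and Tnc differed more than Slc1a3 and H2ac8 when each gene was left out of the choice. The gene sets came from earlier results of these same data, so the ratios below are no test of the state. To read each gene without the choice it takes part in, cells were chosen again with that gene left out of its set, and the gene was then measured. Chosen without Acta2, the contractile cells had 242 CPM of Acta2 (227 to 257), against 114 CPM in the remaining A cells (109 to 119), a ratio of 2.12. For Tnc the levels were 84.1 CPM (76.1 to 92.7) and 55.2 CPM (51.7 to 58.8), a ratio of 1.52. For Slc1a3 they were 166 CPM (153 to 180) and 143 CPM (138 to 149), a ratio of 1.16. For H2ac8 they were 59.4 CPM (52.7 to 66.8) and 53.3 CPM (49.9 to 56.8), and the interval of the log2 ratio, -0.04 to 0.35, included 0. These cells were also chosen for having no epithelial UMI, so the reading was repeated among A cells with none, after the values above were seen. There, cells with at least 2 UMIs of the other contractile genes over cells with fewer gave ratios of 1.63 for Tnc, 1.61 for Acta2 and 1.19 for Slc1a3, and for H2ac8 a log2 ratio of 0.17 (-0.06 to 0.40). The ratios of Tnc and Acta2 were thus above those of Slc1a3 and H2ac8 in both readings. Each epithelial gene, read in cells chosen without it, had a contractile to other A ratio between 0.239 (Epcam) and 0.390 (Ehf). This choice asked for 0 UMIs of the other epithelial genes and 2 or more contractile UMIs at once, so these ratios cannot be set against those of the contractile genes.

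**Figure D2:**
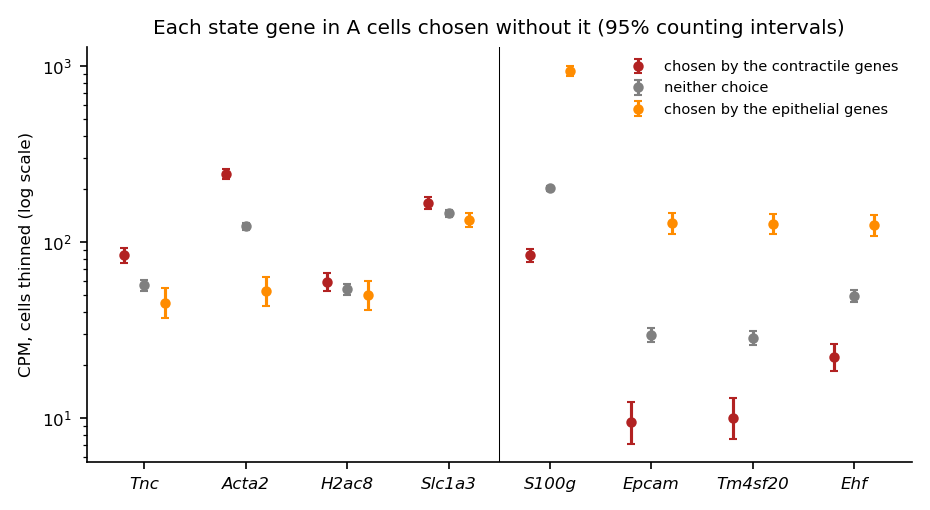
Level of each state gene (CPM, log axis) in A cells chosen with that gene left out of the rule: red, chosen by the contractile set; orange, by the epithelial set; grey, A cells chosen by neither. Bars are 95% counting intervals; Acta2 at 242, 123 and 52.7 CPM is spread most among the contractile genes, and the H2ac8 points lie between 49.9 and 59.4 CPM.

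Transcripts of the contractile set were rare in B cells. After thinning, Acta2 was seen in 19.1% of all A cells, whether or not they met the state rule, and in 0.872% of B cells, Tnc in 14.5% and 0.385%, Slc1a3 in 33.4% and 0.691%, and H2ac8 in 14.2% and 2.15%. In Tnc/Acta2 cells, which were chosen for these genes, the shares were 42.3%, 26.4%, 52.8% and 22.6%. Before thinning the B shares were 1.84%, 0.828%, 1.75% and 4.10%, at a median of 5440.5 UMIs per cell. Of 8936 B cells, 75 (0.839%) met the state rule.

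Against the other A cells, most genes of the Tnc/Acta2 cells were at a similar level. Leaving out the 19 genes of the rule, 3654 genes reached 50 CPM in 1 of the groups or both. Of these, only Ankrd1 was at least 2-fold higher, or 0.0274%, and 7 genes were at least 2-fold lower, or 0.192%. At a smaller limit of 1.25-fold, 70 genes were higher (1.92%) and 169 lower (4.63%). The median log2 ratio over the 3654 genes was 0.00, and its 1st and 99th percentiles were -0.61 and 0.41. The 15 highest ratios included genes of the matrix (Fn1, Fbln2, Thbs1) and known YAP/TEAD targets (Ankrd1, Ccn1, Ccn2), and the 15 lowest included the galectin gene Lgals4 and the glutathione transferase genes Gsta1 and Gstt1. The shares above are the background for the counts of each gene list against other A cells. Against S100g/Epcam cells the background at 1.25-fold was 15.1% higher and 19.9% lower. Counts inside the Tnc/Acta2 cells have their own shares, given with them.

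Besides Acta2, a few actin-binding genes were at least 1.25-fold higher, and most of the contractile list differed by less. Of 32 genes in the contractile list, 19 besides Acta2 reached 50 CPM, and their median log2 ratio was 0.19. Of these, 4 were at least 1.25-fold higher and 1 was at least 1.25-fold lower. Tpm1, an alpha tropomyosin that lines actin filaments, had 904 CPM (879 to 930) in Tnc/Acta2 cells, 650 in other A cells and 534 in S100g/Epcam cells. Csrp1, a LIM protein of actin bundles, had 123, 86.8 and 75.2 CPM in the same order, and the calponin Cnn2 had 115, 90.5 and 77.3 CPM. These genes had the same order of levels over the 3 groups. Cald1, which encodes the actin-binding caldesmon, had 631 CPM against 500 in other A cells and 507 in S100g/Epcam cells. The lower gene was Myl12b, a regulatory light chain of non-muscle myosin, with 398, 502 and 707 CPM. Its neighbour in function Myl12a went the other way, with 743, 637 and 553 CPM. Actb, the gene of cytoplasmic beta actin, had 4738 CPM against 4238 and 3961.

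Several genes of differentiated smooth muscle were at or near 0 in spite of Acta2, and other genes of the list that smooth muscle also uses were not. In all 10450515 UMIs of the 1902 cells, before thinning, there were 3642 of Acta2, 137 of Myl9 (smooth-muscle myosin light chain), 82 of Actg2 (enteric actin) and 47 of Tagln (transgelin). There were 3 UMIs of Myh11 (smooth-muscle myosin heavy chain), 2 of Des (desmin), 1 of Cnn1 (calponin 1) and 0 of Lmod1 and Synpo2. There were 1107 UMIs of Mylk (myosin light chain kinase), 396 of Tpm2 (beta tropomyosin) and 171 of Smtn (smoothelin), at 105.9, 37.9 and 16.4 CPM against 111, 34.8 and 14.05 in other A cells, also before thinning. Tagln, Actg2 and Myl9 were nevertheless higher than in other A cells, with log2 ratios of 2.12 (1.14 to 3.14), 2.15 (1.45 to 2.87) and 1.31 (0.85 to 1.76) at levels of 4.17, 7.98 and 13.8 CPM. Acta2 and Actg2 have near-identical coding sequences, so how their reads were shared between them is uncertain.

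The promoters of contractile genes with a ratio of at least 2 are shown because SRF and TEAD sites there are textbook features of this gene class. Acta2 and Myl9 were in the RefSeq promoter table (GRCm38.p6), which gives 250 bases before and 50 after the start of a gene. Actg2 and Tagln met the same limit. Ankrd1 and Tpm1 were added after their values were seen. Capitals mark CArG-like motifs, the letters CC and GG around 6 bases of which at least 5 are A or T, which read alike on both strands, and the TEAD motif GGAATG or its reverse CATTCC. No match of one motif lay over a match of the other in these 4 promoters.
Acta2, chr19:34255324-34255623, minus strand: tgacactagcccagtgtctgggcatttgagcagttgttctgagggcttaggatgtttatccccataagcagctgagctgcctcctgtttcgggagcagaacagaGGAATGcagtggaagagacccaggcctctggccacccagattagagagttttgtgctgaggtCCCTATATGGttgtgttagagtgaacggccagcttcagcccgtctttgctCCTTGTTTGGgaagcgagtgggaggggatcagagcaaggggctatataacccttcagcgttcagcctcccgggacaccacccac
Myl9, chr2:156775214-156775513, plus strand: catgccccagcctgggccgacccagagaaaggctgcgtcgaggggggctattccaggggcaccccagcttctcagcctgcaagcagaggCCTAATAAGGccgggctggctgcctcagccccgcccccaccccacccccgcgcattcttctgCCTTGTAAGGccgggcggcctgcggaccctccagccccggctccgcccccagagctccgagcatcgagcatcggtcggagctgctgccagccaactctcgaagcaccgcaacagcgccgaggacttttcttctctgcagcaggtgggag
Ankrd1, chr19:36119795-36120094, minus strand: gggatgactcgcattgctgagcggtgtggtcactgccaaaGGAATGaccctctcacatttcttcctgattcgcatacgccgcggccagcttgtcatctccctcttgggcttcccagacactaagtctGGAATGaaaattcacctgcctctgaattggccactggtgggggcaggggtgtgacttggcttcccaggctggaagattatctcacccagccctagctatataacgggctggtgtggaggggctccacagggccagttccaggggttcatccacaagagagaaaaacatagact
Tpm1, chr9:67049164-67049463, minus strand: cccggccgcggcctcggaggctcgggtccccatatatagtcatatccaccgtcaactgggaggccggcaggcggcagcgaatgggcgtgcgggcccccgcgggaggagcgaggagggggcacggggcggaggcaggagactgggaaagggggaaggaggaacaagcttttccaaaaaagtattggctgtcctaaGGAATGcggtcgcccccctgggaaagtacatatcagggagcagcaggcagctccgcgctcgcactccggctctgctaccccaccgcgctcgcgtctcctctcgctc
The Acta2 promoter held 2 CArG-like matches and 1 TEAD match, and the Myl9 promoter 2 CArG-like matches. The Ankrd1 promoter held 2 TEAD matches and that of Tpm1 held 1, with 0 CArG-like matches in either window. Of 27025 promoters in the table, 9.998% held a CArG-like match, 14.63% a TEAD match and 1.613% both. Of the 19 contractile list genes besides Acta2 with at least 50 CPM, 18 had a promoter in the table. Of these, 5 held a CArG-like match and 8 a TEAD match. Among 2977 tested genes with a promoter, the shares were 8.767% and 11.12%. Of 56 such genes at least 1.25-fold higher in Tnc/Acta2 cells, 5 held a CArG-like and 12 a TEAD match. Of 132 at least 1.25-fold lower, 12 and 22 did. A match describes the letters and not the binding of a factor.

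Targets known for YAP, TAZ and TEAD stood among the highest ratios. Ankrd1 (ENSMUSG00000024803) encodes an ankyrin repeat protein of muscle and stretched cells. It had 87.6 CPM in Tnc/Acta2 cells (80.0 to 95.8), 34.1 in other A cells (31.3 to 37.0) and 16.0 in S100g/Epcam cells, a 2.57-fold difference from other A cells. Ccn1 and Ccn2 encode secreted matricellular proteins, and their levels were 249, 166 and 117 CPM for Ccn1 and 103, 69.0 and 43.2 CPM for Ccn2. B cells had 155 CPM of Ankrd1, 213 of Ccn1 and 217 of Ccn2, so the first and the last of these genes were higher in B cells than in Tnc/Acta2 cells. Over the 7 tested genes of the YAP/TEAD list the median log2 ratio against other A cells was 0.26, and the same 3 were at least 1.25-fold higher. In the list of MRTF and SRF targets outside the contractile list, 4 of 9 were at least 1.25-fold higher than in other A cells, with a median of 0.10. Against S100g/Epcam cells 3 of 10 were higher and 2 lower, with a median of -0.02. Over all genes of that comparison 15.1% were higher and 19.9% lower. The 4 higher than in other A cells were again Ankrd1, Ccn1 and Ccn2, with Zyx (zyxin of focal adhesions, 51.0 against 40.4 CPM). The factors themselves were close to the other A cells, with log2 ratios of 0.10 for Mrtfa and -0.02 for Yap1, though Tead1 stood at 0.26 (177 against 148 CPM).

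Beyond Tnc, the matrix genes Fn1 and Thbs1 were higher. Fn1, which encodes fibronectin, had 247 CPM in Tnc/Acta2 cells (234 to 261), 136 in other A cells (130 to 142) and 64.0 in S100g/Epcam cells, and 16.6 CPM in B cells. Thbs1, or thrombospondin 1, had 140, 92.1 and 70.4 CPM. Of 6 tested matrix genes these were the 2 at least 1.25-fold higher, and none was at least that much lower, with a median log2 ratio of 0.29. Spp1 (osteopontin) was alike at 1043 and 1045 CPM. Fbln2, the matrix protein fibulin 2, was outside the list and had 101, 60.8 and 34.1 CPM, against 87.7 in A cells with neither gene set and 421 in B cells.

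Sorbs2 and Gdf15 were also among the 15 highest ratios. Sorbs2, an adaptor of actin and cell junctions, had 464 CPM (446 to 482) against 263 in other A cells (256 to 271). Gdf15, a secreted stress-response factor of the TGF-beta superfamily, had 165 CPM (154 to 176) against 101 (95.9 to 106). Robo1 (a Slit receptor), Sema3d (a semaphorin), Efna5 (an ephrin) and Tenm3 (a teneurin) had log2 ratios of 0.73, 0.59, 0.57 and 0.62. Il5ra, a subunit of the interleukin 5 receptor, stood at 0.55, the predicted gene Gm14636 at 0.70 and the histone gene H4c9 at 0.62. Il5ra was alike in A cells with neither gene set, at 91.6 against 90.7 CPM, and B cells had 314 CPM of Il5ra and 100.2 of Gm14636. Efna5 was at 199 CPM against 175 in A cells with neither gene set, and Tenm3 at 72.0 CPM against 147 in B cells.

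The 15 lowest ratios lay between -1.31 and -0.87 on the log2 scale. Lgals4, a galectin of digestive epithelium, had 268 CPM in Tnc/Acta2 cells (255 to 282), 612 in other A cells (600.3 to 624) and 1330 in S100g/Epcam cells. Tmigd1, an adhesion protein of epithelial brush borders, had 93.4, 216 and 441 CPM. Slc40a1, the iron exporter ferroportin, had 60.0, 141 and 279 CPM. All 3 were highest in S100g/Epcam cells and lowest in Tnc/Acta2 cells. Gsta1, Gstt1, Ugt2b34 and Sult1c2, which encode conjugating enzymes, had log2 ratios of -1.27, -1.08, -0.99 and -0.93 against other A cells. Serpinb1a, a protease inhibitor, stood at -1.15, the secreted protein gene Nepn at -1.31 and the chemoattractant gene Gpr15lg at -0.99. Ranbp3l, Rnf103, Zfp40, Gm5886 and Gm49980 completed the 15 lowest, between -0.99 and -0.87. Some of these genes were as low or lower in the A cells with neither gene set. Nepn was at 20.3 against 21.6 CPM there, with a log2 ratio of -0.09 (-0.56 to 0.40). The intervals of Gm49980, Ranbp3l, Ugt2b34 and Serpinb1a over these cells also included 0, and Gm5886 was 1.28-fold higher than in them.

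Some regulators of epithelium were lower, and some keratins were higher than in other A cells. Of 4 tested epithelial regulators 2 were at least 1.25-fold lower, Hnf4a with 67.5, 93.0 and 120.0 CPM and Onecut2 with 245, 323 and 436 CPM over Tnc/Acta2, other A and S100g/Epcam cells. The median over the 4 was -0.32. None of 6 tested junction genes passed 1.25-fold against other A cells (median -0.18), and 6 of 7 were at least that much lower than in S100g/Epcam cells (median -0.58). Over all genes, 19.9% were that much lower than in S100g/Epcam cells and 15.1% higher. Cdh1, the gene of E-cadherin, had 32.8 CPM against 31.8 in other A cells. Of 5 tested keratins, 2 were at least 1.25-fold higher. Krt18 was at 1336 against 965 CPM and Krt7 at 56.2 against 44.3 CPM, and Krt19, which did not pass the limit, was at 539 against 630. Against S100g/Epcam cells 2 of 6 keratins were higher and 2 lower, too few to set against the shares over all genes. Their median log2 ratio was -0.01, and the summed level of the keratin list was 3043 against 3041 CPM. Krt7, Krt18 and Krt19 are keratins of simple epithelium. Vil1, the microvillus protein villin, had 13.96, 26.7 and 60.8 CPM. In the integrin and focal adhesion list 3 of 15 tested genes were at least 1.25-fold lower and 0 higher than in other A cells. Against S100g/Epcam cells 7 of 16 were lower and 2 higher, the latter close to the 15.1% over all genes. Itga1, the collagen-binding alpha 1 chain, was lower at 72.9, 125 and 208 CPM, and Itga3 was alike at 87.8 and 83.1 CPM.

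Few genes of epithelial-mesenchymal transition reached 50 CPM, too few to set against the 1.92% of all tested genes that were higher. Of 4 tested transcription factors 1 was at least 1.25-fold higher, Runx2 with 106 against 81.2 CPM, and of 4 tested mesenchymal genes 1 was, Fn1. Vim (vimentin) had 1425 CPM against 1345, Zeb1 125 against 128 and Twist2 29.4 against 31.2. Under the minimum of 50 CPM, Snai2 had 29.0 against 20.4 CPM and Cdh2, the N-cadherin gene, 34.5 against 24.1, both beyond 1.25-fold. S100a4 had 1082 against 1228 CPM. In the TGF-beta list 1 of 5 tested genes passed 1.25-fold, the feedback gene Pmepa1 with 225 against 176 CPM. The glutamate list, written because of Slc1a3, had 0 of 3 tested genes past 1.25-fold, with a median log2 ratio of 0.07.

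**Figure D3:**
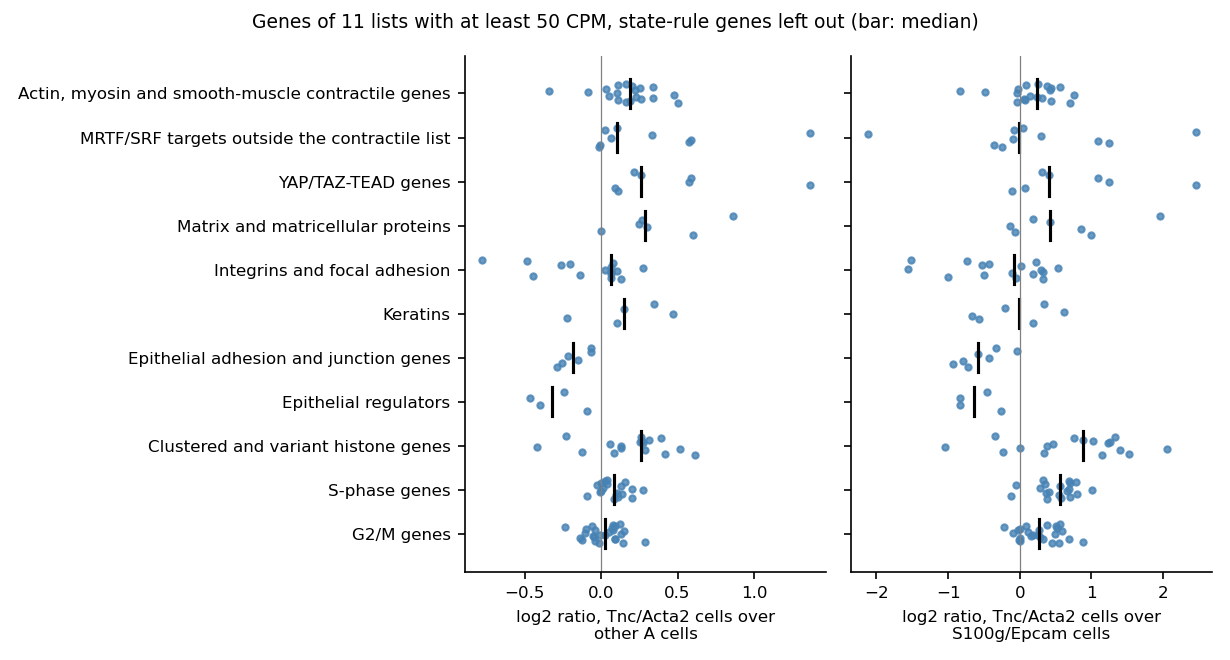
Log2 ratio of each gene with at least 50 CPM in 11 gene lists, Tnc/Acta2 cells over other A cells (left) and over S100g/Epcam cells (right). Points are genes, black bars are list medians, and state-rule genes are left out; epithelial regulators sit below 0 in both panels, and most histone and S-phase genes sit farther above 0 in the right panel.

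Differences were wider against the S100g/Epcam cells, the other end of the range of A cells. Of 3884 genes, 35 were at least 2-fold higher in Tnc/Acta2 cells (0.901%) and 117 at least 2-fold lower (3.01%). These counts moved widely with the rule and the minimum level, from 10 and 44 to 140 and 399. At 1.25-fold, 585 were higher (15.1%) and 771 lower (19.9%). The highest were Ankrd1 (5.47-fold), the histone gene H2bc18 (4.17-fold), Fn1 (3.86-fold), the matrix protease gene Adamts1 (3.28-fold), Fbln2 and the guidance gene Slit2 (both 2.97-fold). Slit2 was not higher than in A cells with neither gene set, at 171 against 189.5 CPM, and the interval of the log2 ratio of Fbln2 to those cells, -0.01 to 0.43, included 0. The lowest were Dmbt1 (4.53 against 68.3 CPM), a mucosal scavenger protein, the microvillus-linked Eps8l3 (4.90 against 70.9 CPM) and the apolipoprotein gene Apoc2 (4.17 against 53.9 CPM). In the contractile list 7 of 19 genes were at least 1.25-fold higher and 2 lower, with a median log2 ratio of 0.24 against -0.01 over all genes.

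Histone and S-phase genes were among those that differed from S100g/Epcam cells, to a degree that depended on the rule. Of 17 tested histone genes, 13 were at least 1.25-fold and 8 at least 2-fold higher than in S100g/Epcam cells, with a median log2 ratio of 0.89. The linker histone H1f5 had 747 CPM (724 to 770) against 311, and H4c4 138 (129 to 149) against 48.0. The 2 lower histones were H2az2 and H1f0, variants made outside replication, with 138 against 286 and 144 against 183 CPM. Of 19 S-phase genes 16 were at least 1.25-fold higher, among them Rrm2, a subunit of ribonucleotide reductase, with 240 against 119 CPM, and of 25 G2/M genes 11 were. H2ac8 is itself such a histone and part of the rule, and the lists were read again under other rules, with and without it. The log2 ratio of the summed histone list was 0.41 with the rule as given, 0.25 without H2ac8 in the rule and 0.14 with Acta2 as the only contractile gene. For the S-phase list these were 0.56, 0.36 and 0.29, and for G2/M 0.33, 0.20 and -0.11, the last with a reversed sign. With H2ac8 kept and Slc1a3 left out, the histone, S-phase and G2/M sums were at 0.34, 0.48 and 0.09. With H2ac8 kept and the rule and the levels read from separate UMIs they were at 0.25, 0.31 and 0.17. That reading split each cell's UMIs at random and asked for at least 1 contractile and 0 epithelial UMIs in the part used for the rule. Its rule was thus looser, and with at least 1 contractile UMI among all UMIs the sums were at 0.28, 0.37 and 0.21. The sums were thus also smaller under these rules that kept H2ac8, but not under all such rules. Without Acta2 they were at 0.41, 0.52 and 0.35, and without Tnc at 0.39, 0.50 and 0.35. With at least 3 contractile UMIs they were at 0.44, 0.67 and 0.42. Among the rules that left out a contractile gene, the one without H2ac8 gave the lowest histone and S-phase sums. The part of H2ac8 in the sums was not tested and cannot be told from these values. The contractile list was at 0.18 with the rule as given, 0.23 without H2ac8 and 0.41 with Acta2 alone, so with Acta2 alone it was above the other 3 lists. Against other A cells, 4 of 17 histone genes, 0 of 19 S-phase genes and 0 of 25 G2/M genes were at least 1.25-fold higher. Histone genes have near-identical copies, so their single counts are uncertain. Median UMIs per cell also differed between these groups (4985 and 4287), as did the median mitochondrial share (3.06% and 3.58%). With at most 5% mitochondrial UMIs the histone, S-phase and G2/M sums were at 0.39, 0.53 and 0.28. In cells thinned to 4500 UMIs they were at 0.30, 0.40 and 0.04, and with the strict cell filter at 0.28, 0.42 and 0.11. All 3 were thus smaller in the deeper cells, and little was left of the G2/M difference there.

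Along the number of contractile UMIs, Tpm1, Ankrd1 and Fn1 were highest at the far end, and Lgals4 was lowest there. With 0 epithelial UMIs and 1, 2 and 6 or more contractile UMIs, Tpm1 was at 687 (658 to 717), 728 (691 to 766) and 1439 CPM (1367 to 1514). Ankrd1 was at 38.7, 60.6 and 163 CPM, and Fn1 at 147, 168 and 433 CPM. On either side of the threshold of 2 UMIs the counting intervals of Tpm1 and Fn1 overlapped and those of Ankrd1 did not, and the 347 cells with 6 or more UMIs stood highest for all 3. Lgals4 was at 425 CPM in cells with neither set, 373 at 1 contractile UMI and 185 at 6 or more. Its larger step ran along epithelial UMIs, from 1330 CPM in S100g/Epcam cells to 546 at 1 epithelial UMI, all at 0 contractile UMIs. H1f5 did not follow either course, with 311 CPM in S100g/Epcam cells, 853 at 3 contractile UMIs and 640 at 6 or more. The median depth over these groups ran from 4054 to 5609 UMIs before thinning. Acta2 had the highest 95th percentile of the contractile set, 9 UMIs against 2 or 3, so this course overlaps with the split by Acta2 below.

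**Figure D4:**
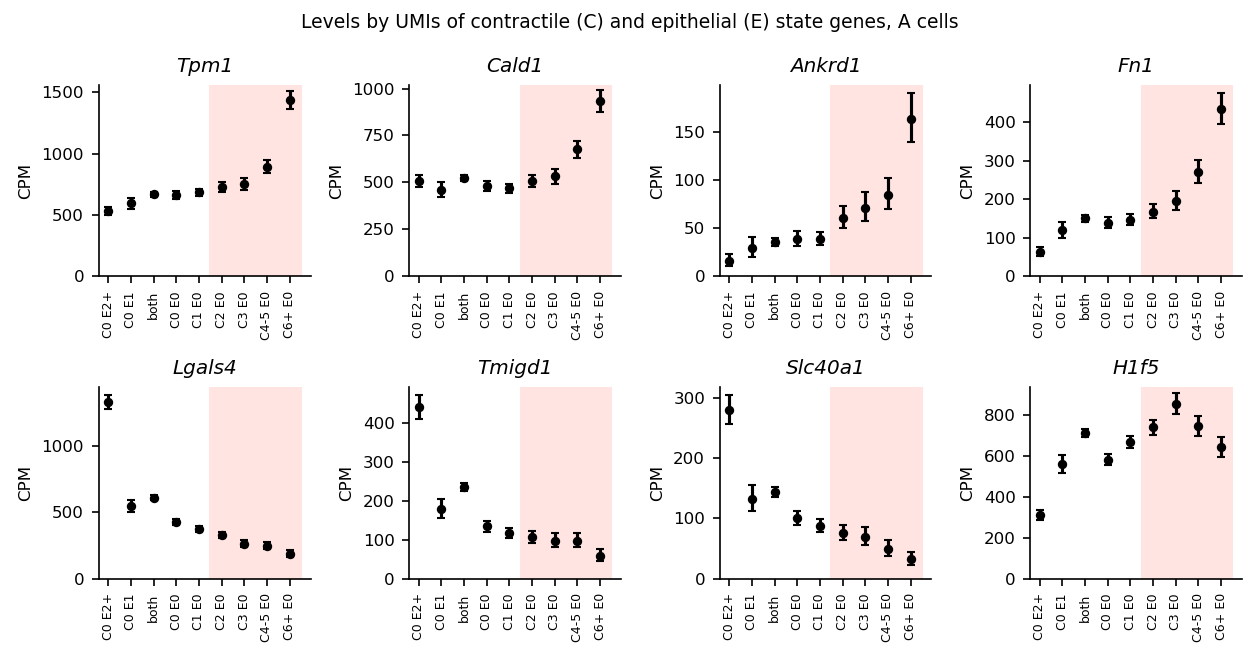
Level (CPM, linear axes from 0) of 8 genes in A cells grouped by UMIs of the contractile set (C) and the epithelial set (E), with 95% counting intervals. The Tnc/Acta2 cells are shaded; Tpm1, Cald1, Ankrd1 and Fn1 are highest at 6 or more contractile UMIs, Lgals4, Tmigd1 and Slc40a1 are highest in S100g/Epcam cells, and H1f5 peaks at 3 contractile UMIs.

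Within the Tnc/Acta2 cells, other genes of the contractile list went with Acta2. There were 656 cells with at least 2 Acta2 UMIs and 879 with 0, of which 641 and 846 were deep enough to thin. Of 3697 genes, 184 were at least 1.25-fold higher with Acta2 (4.98%) and 249 lower (6.74%), and 7 and 4 passed 2-fold (0.189% and 0.108%). Of 20 tested contractile genes 12 were at least 1.25-fold higher and 0 lower, with a median log2 ratio of 0.37 against -0.02 over all genes. Actg2 gave 39 UMIs in cells with Acta2 and 2 in cells without, a log2 ratio of 4.69 (2.74 to 7.78). Tagln gave 22 and 0 UMIs, and Myl9 55 and 10 UMIs, or 28.6 and 3.94 CPM. Of these groups, the cells with Acta2 thus held nearly all Actg2 and Tagln UMIs. Tnc, which is not in that list, was at 126 CPM with Acta2 and 113 without, a log2 ratio of 0.15 (-0.10 to 0.41). Cells without Acta2 had to enter through Tnc or the other genes of the rule.

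Matrix, YAP/TEAD and MRTF/SRF genes were also higher in the cells with Acta2. Tpm1 was at 1269 CPM with Acta2 (1220 to 1321) and 669 without (638 to 702), Tpm2 at 63.4 and 26.0, Csrp1 at 184 and 87.9 and Cald1 at 835 and 494. Fn1 was at 374 and 163 CPM, Ankrd1 at 134 and 57.9 and Gdf15 at 239 and 118. Dstn, the actin-severing destrin, had differed little from other A cells but was at 882 CPM with Acta2 and 545 without. Matrix genes passed 1.25-fold in 5 of 7 cases, YAP/TEAD genes in 4 of 7 and MRTF/SRF targets in 6 of 9. The log2 ratios of the summed lists were 0.33, 0.40 and 0.55 in the same order. Ankrd1, Ccn1 and Ccn2 stand in both the YAP/TEAD and the MRTF/SRF list. Lower with Acta2 were Slc40a1 (32.8 and 83.1 CPM), Gpr15lg (97.2 and 232), the kinase gene Map2k6 (23.4 and 50.8), the choline transporter gene Slc44a1 (24.96 and 52.4) and Lgals4 (190 and 330).

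Some histone genes went the other way inside the cells. Of 17, 7 were at least 1.25-fold lower with Acta2 and 1 higher, H2bc4. H1f5 was at 640 and 833 CPM and H2ac20 at 203 and 296. Of the G2/M genes 5 of 25 were lower and 0 higher, among them Top2a, a DNA topoisomerase, at 604 and 777 CPM, and of the S-phase genes 2 of 19 were higher and 1 lower. Cells without Acta2 could enter only through Tnc, Slc1a3 and H2ac8, and H2ac8 was at 53.0 CPM with Acta2 and 116 without; the part of this in the histone levels was not tested. Median depth was 5276.5 UMIs with Acta2 and 4877 without.

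**Figure D5:**
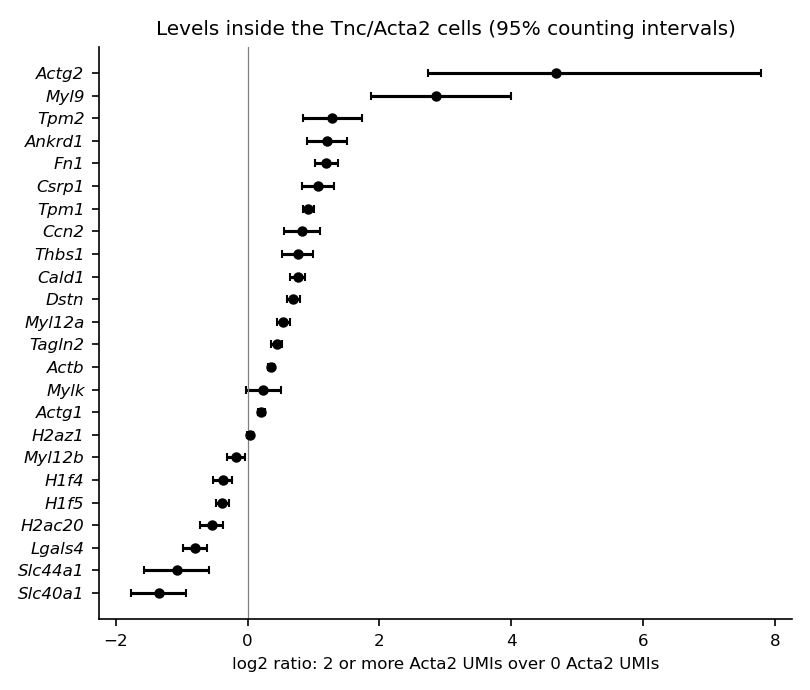
Log2 ratio of 24 genes inside the Tnc/Acta2 cells, cells with 2 or more Acta2 UMIs over cells with none, with 95% counting intervals. Actg2 and Myl9 stand farthest to the right with wide intervals, actin and matrix genes lie above 0, and H1f4, H1f5, H2ac20 and Lgals4 lie below 0; the genes were chosen after their values were seen.

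Markers of the other cell types of a pancreas were near 0 in Tnc/Acta2 cells, counted over all UMIs without thinning. The 12 fibroblast markers gave 28 UMIs in all 1902 cells, with 7 of them at 0, among these Dcn and Lum, and a sum of 2.68 CPM against 2.18 in other A cells. The 10 pericyte and smooth-muscle markers gave 10 UMIs, with 6 at 0, or 0.957 against 0.805 CPM. Glial, endothelial, immune, acinar and endocrine lists summed to between 0.0957 and 12.9 CPM in Tnc/Acta2 cells, with 4 to 9 of 10 genes at 0, and 1 of the 1902 cells had 3 or more UMIs of any of the 7 lists. Scrublet marked 32 of the cells (1.68%) as doublets, against 1.93% of other A cells, and these were kept in the values given. Ceacam1, 1 of the genes that define A cells, was itself lower in them, at 66.0, 91.4 and 147 CPM over Tnc/Acta2, other A and S100g/Epcam cells. Median shifts of whole chromosomes lay between -0.05 and 0.03 on the log2 scale against other A cells.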

How the data were processed

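Single-cell expression of 1 pooled library was used. The deposited matrix holds whole-number UMI counts per gene and barcode, made by the authors with Cell Ranger 8.0.1 and the build GRCm39, per the submitters' processing notes; the annotation is not given in the sources used here. Columns of other samples: 0. Cells had at least 2000 UMIs, 1000 genes and at most 15% mitochondrial UMIs, and Scrublet doublets (scanpy 1.11.5, expected rate 0.08; 778 barcodes, 3.64%) were kept. The library's 22178 barcodes had 500 to 23576 UMIs each and were all distinct.

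Each cell was thinned to 3000 UMIs with a fixed seed, and counts were summed per group. Intervals are 95%: Poisson for CPM, Clopper-Pearson for shares, conditional binomial for ratios. With 1 library there was no test. Only the ratio step was tested on simulated counts, which had no spread between cells and did not pass through the thinning or the cell rules. Named genes were the 8 state genes, the 15 highest and 15 lowest ratios over other A cells, and examples with at least 20 CPM from 25 lists; the 1.25-fold limit, the smooth-muscle genes under 20 CPM, the highest and lowest genes against S100g/Epcam cells and the genes named inside the Tnc/Acta2 cells were picked with their values in view. The members and lists were chosen with earlier results of these data known. UMI counts from 3' ends are not scaled by gene length, so a level is compared between groups and not between genes. Chromosome names came from GENCODE M21, matched for 31961 features. Software was Python 3.11.15, numpy 2.4.6, scipy 1.17.1 and pandas 2.3.3.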

Additional observations from a re-analysis of the deposited data

Results flagged for a closer look

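The state rule was also met outside the A and B cells, in barcodes that enter no comparison above. Of 4609 barcodes that passed the filter and were neither A nor B, 17.42% met it, against 0.839% of B cells. Scrublet marked 9.20% of these 4609 as doublets, against 1.87% of A cells and 2.33% of B cells. Of 817 barcodes that failed the cell filter, 10.77% met it.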

How the results depend on the processing

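The share of Tnc/Acta2 cells among A cells (24.3%) followed the rule closely. It was 28.5% with the strict cell filter and 18.6% with the rule on thinned cells. At 3 or more UMIs it was 15.5%, at 1 or more 38.2%, and with at most 1 UMI of the other set allowed 34.2%. With the rule and the levels read from separate UMIs it was 36.0%, and there the rule asked for at least 1 contractile UMI. Leaving Tnc, Acta2, H2ac8 or Slc1a3 out of the rule gave 21.2%, 18.01%, 21.1% and 15.01%, and Acta2 alone, an alternative chosen after seeing the data, gave 8.39%. Genes at least 2-fold higher than in other A cells (1) numbered 2 on thinned cells, 2 at 3 or more UMIs, 3 without Slc1a3, 7 with a minimum of 10 CPM, 0 with a minimum of 100 CPM and 7 with Acta2 alone. Genes at least 2-fold lower (7) numbered 4 on thinned cells, 47 at 10 CPM, 3 at 100 CPM, 11 without mitochondrial and ribosomal-protein genes and 15 with Acta2 alone. Against S100g/Epcam cells, 35 higher and 117 lower genes became 60 and 180 at 3 or more UMIs, 14 and 56 at 1 or more, 18 and 68 with 1 UMI of the other set allowed, 10 and 44 on separate UMIs, 140 and 399 at 10 CPM, and 20 and 59 at 100 CPM. The cause was not tested. The loose cell filter was run for the share only. Of 570 recomputed ratios of the 15 highest and 15 lowest genes 112 moved beyond the counting interval and 0 changed sign; since these genes were chosen as extremes of the same cells, that is no sign of stability. Of 418 recomputed list ratios 153 moved and 16 changed sign, the latter all in the G2/M, keratin, adhesion and SRF lists. No paired analysis was possible because there was 1 library. That library limits every value, since no spread between cultures is known. The depth of 3000 UMIs per cell limits the thinned levels, and genes under 50 CPM were left out of the main counts.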
